A study of Mus musculus with 30 samples.

Results

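Microglia are the resident macrophages of the brain. Among the genes used to tell them from other macrophages is a group that is high while the cells survey undisturbed tissue, and its members code for receptors, surface proteins, a transcription factor and a secreted protein. Levels of these homeostatic identity genes are known to be lower in microglia that respond to injury or disease, whereas genes that all brain macrophages share are usually retained or higher. A group of 9, named below by symbol, was followed here in mouse hippocampus, and all 9 of 9 had a row among the 21412 genes of the normalized count table.

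They are P2ry12 and P2ry13, which code for receptors of extracellular ADP, Gpr34, which codes for a receptor of lysophosphatidylserine, and Cx3cr1, which codes for the receptor of the neuronal chemokine fractalkine. Tmem119 codes for a membrane protein widely used as a microglia marker, Siglech for a sialic acid binding lectin and Selplg for the ligand of P-selectin. Sall1 codes for a zinc finger transcription factor that maintains microglia identity, and Olfml3 for a secreted matrix protein. The rule names the genes by symbol and uses no measured value, although the group was proposed with earlier results of these data known.

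Male BALB/c mice, 5 in each of 6 groups, gave 1 hippocampus library each (TruSeq Stranded mRNA kit, which selects polyadenylated RNA). Mice of the Ctr, LD and HD groups arrived at an age of 2 to 3 weeks, were housed singly and ate for 11 weeks a feed with 0, 0.28 or 5 mg methylmercury (MeHg) per kg, with cysteine added to the feed of these groups. Se_Ctr, Se_LD and Se_HD mice were labelled as given selenium with no mercury, low dose mercury or high dose mercury, and their doses, age and time on diet are not given in the sources used here. The comparisons address whether the members' RNA levels differ with mercury dose, and whether this differs between the diets.

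Library totals lay between 5768208 and 11510521 reads counted on genes. A member was counted with between 47 and 1409 reads per library, so every member was measured in every mouse. Mice are called by their library number, which runs in sets of 6 consecutive numbers that hold 1 mouse of each group. All 8 genes listed for hippocampal neurons had reads in all groups. The level of 6 choroid plexus genes varied widely, with sums from 273 to 37100 normalized counts over all mice. Since the samples are whole tissue, fewer cells of a type and less RNA per cell cannot be told apart.

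The sequences just before the start site are shown for 3 members whose levels differed most clearly with HD and for which the RefSeq promoter table (GRCm38.p6) held a window free of annotated exons. Windows were found for 6 of the 9 members, and each was placed on the NCBIM37 genome by an exact and unique match of its 250 bases before the start site. Each runs from 5′ to 3′ along the gene, which in all 3 lies on the minus strand. Capitals mark GAGGAA, the core of the motif bound by PU.1, a factor of the macrophage lineage, which was searched on both strands together with the AP-1 motif TGACTCA. P2ry13 lies at chr3:59014805-59015054, Olfml3 at chr3:103541925-103542174 and Cx3cr1 at chr9:119977415-119977664.
P2ry13: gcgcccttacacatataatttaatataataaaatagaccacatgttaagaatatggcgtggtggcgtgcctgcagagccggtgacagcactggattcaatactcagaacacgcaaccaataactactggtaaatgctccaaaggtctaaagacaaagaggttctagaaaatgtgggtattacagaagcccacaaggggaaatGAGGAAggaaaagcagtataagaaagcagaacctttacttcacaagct
Olfml3: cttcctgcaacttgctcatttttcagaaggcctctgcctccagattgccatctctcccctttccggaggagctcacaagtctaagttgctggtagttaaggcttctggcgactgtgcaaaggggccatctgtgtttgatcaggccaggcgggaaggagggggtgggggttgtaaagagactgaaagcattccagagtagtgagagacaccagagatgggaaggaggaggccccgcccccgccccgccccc
Cx3cr1: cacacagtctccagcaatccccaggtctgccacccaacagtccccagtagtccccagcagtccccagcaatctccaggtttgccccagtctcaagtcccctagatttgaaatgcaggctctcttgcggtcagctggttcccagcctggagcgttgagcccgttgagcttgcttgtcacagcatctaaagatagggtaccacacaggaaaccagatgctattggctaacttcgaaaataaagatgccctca

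Among the 6 members with a window, 1 held GAGGAA and 0 held TGACTCA. That 1 was P2ry13, with the match beginning 48 bases before the start site. Of all 32851 windows of this length, 23.3% held the first motif and 4.46% the second, with no position shared between their letters. The GC content of the window was 41.6% for P2ry13, 53.6% for Cx3cr1 and 57.6% for Olfml3. A match is a description of letters only.

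In the groups not labelled as given selenium, HD mice had higher mean levels than Ctr mice in all 9 members, from 1.16-fold for Sall1 to 2.84-fold for Olfml3. None passed an adjusted p of 0.05 in limma's test over 20031 genes (0 of 9, against 0.13% of all genes), and the lowest adjusted p was 0.086, for Cx3cr1. The count was 1 with edgeR and 4 with DESeq2, beside 45 and 196 of 20031 genes. It was 5 when all 30 libraries shared 1 limma fit, beside 200 of 21383 genes. Without library 15 or 27 it was 1 or 3, with no count over all genes given here. By the study's own rule, an unadjusted p under 0.05 both over the 3 groups and in the contrast, 6 of 9 were called higher (P2ry12, P2ry13, Tmem119, Cx3cr1, Gpr34 and Olfml3), against 3.36% of all genes. The median log2 fold change of the members was 0.47, beside 0.01 over all genes tested. Fold changes are on the scale of log2 of the normalized count plus 1.

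**Figure D1:**
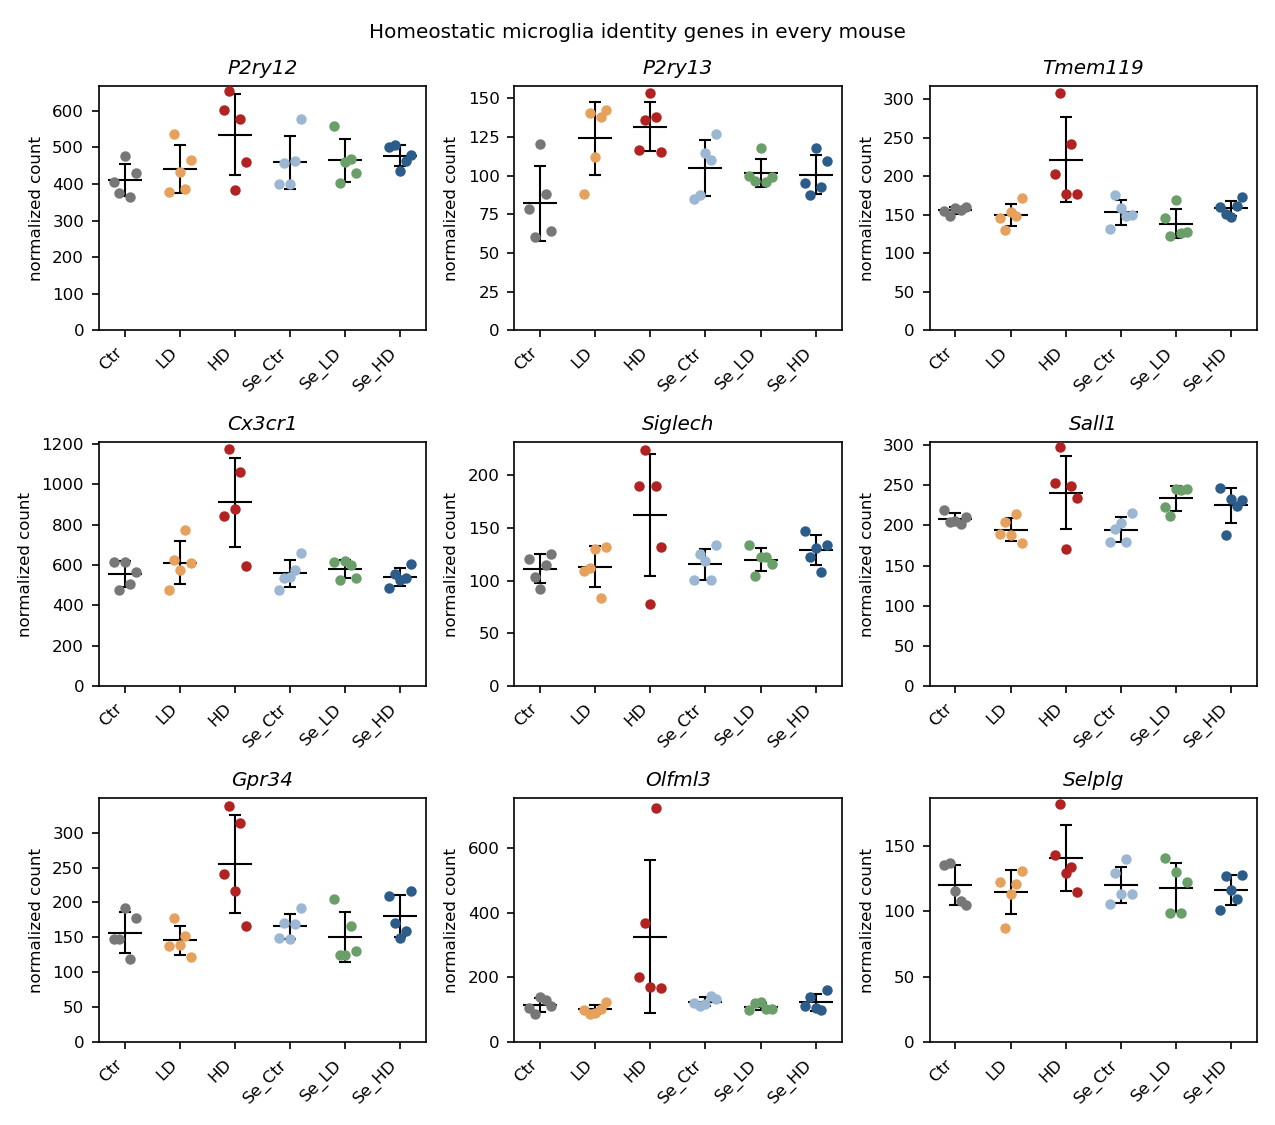
Normalized count (y axis, from 0, a different range per gene) of the 9 members in each mouse, by group on the x axis. Points are mice in order of library number, and the black lines are the mean and SD of 5 mice. In Olfml3 the HD points run from 167 to 722, whereas the points of the 3 selenium groups lie between 99.2 and 162.

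Both P2Y receptors take part in the response of microglial processes to nucleotides. P2ry12 (ENSMUSG00000036353, chr3:59020193-59066753, minus strand) measured 406 (library 1), 376 (library 7), 476 (library 13), 365 (library 19) and 430.5 (library 25) normalized counts in Ctr mice. In HD mice it measured 603 (library 3), 653 (library 9), 383 (library 15), 577 (library 21) and 459 (library 27). Libraries 3, 9 and 21 lay above all Ctr mice, whereas libraries 15 and 27 were within them, so the groups overlapped. The group means were 535 ± 111 in HD and 411 ± 44.9 in Ctr mice (SD, n = 5), a log2 fold change of 0.36 with a standard error of 0.14 (unadjusted p = 0.0152, adjusted p = 0.428 in limma). The gene lies with P2ry13 inside Med12l on the opposite strand and shares no exon base with it.

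P2ry13 (ENSMUSG00000036362, chr3:59011818-59014804, minus strand) measured 78.5 (library 1), 60.1 (library 7), 121 (library 13), 87.9 (library 19) and 64.2 (library 25) in Ctr mice. The HD mice measured 116 (library 3), 136 (library 9), 153 (library 15), 138 (library 21) and 115 (library 27). Library 13 was the one Ctr mouse within the HD range, and library 15 was the highest HD mouse. The log2 fold change was 0.71 with a standard error of 0.18 (unadjusted p = 0.000851, adjusted p = 0.147). P2ry13 was also the one member that the study's rule called in LD mice, where it measured 88.1 (library 2), 141 (library 8), 112 (library 14), 138 (library 20) and 142 (library 26). Of the LD mice, 3 of 5 lay above all Ctr mice, and the log2 fold change was 0.61 with a standard error of 0.18 (unadjusted p = 0.00308, adjusted p = 0.999).

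Gpr34 (ENSMUSG00000040229, chrX:13209215-13217984, plus strand) lies inside Cask on the opposite strand, again with no shared exon base. Its values were 147 (library 1), 148 (library 7), 192 (library 13), 119 (library 19) and 178 (library 25) in Ctr mice. HD values were 240.3 (library 3), 338 (library 9), 216 (library 15), 314 (library 21) and 167 (library 27). All but library 27 lay above every Ctr mouse. The log2 fold change was 0.67 with a standard error of 0.17 (unadjusted p = 0.000969, adjusted p = 0.149).

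Cx3cr1 (ENSMUSG00000052336, chr9:119957811-119977400, minus strand) had the lowest p of the 9 in this contrast. Ctr mice measured 613 (library 1), 476 (library 7), 616 (library 13), 507 (library 19) and 564 (library 25) and HD mice 842 (library 3), 1174 (library 9), 877 (library 15), 1062 (library 21) and 596 (library 27). As with Gpr34, library 27 was the HD mouse within the Ctr range, and libraries 9 and 21 were the highest. Means were 910.0 ± 222 and 555 ± 62.8 (SD, n = 5), a 1.64-fold difference and a log2 fold change of 0.68 with a standard error of 0.15 (unadjusted p = 0.00021, adjusted p = 0.086). Its ligand gene Cx3cl1, which neurons express, had a mean of 2887 in HD and 3273 in Ctr mice (log2 fold change -0.18, standard error 0.12, adjusted p = 0.758).

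Among the surface proteins, Tmem119 (ENSMUSG00000054675, chr5:114243738-114250525, minus strand) was very even in Ctr mice, at 155 (library 1), 148 (library 7), 158 (library 13), 156 (library 19) and 160.0 (library 25). HD mice measured 203 (library 3), 308 (library 9), 176 (library 15), 242 (library 21) and 177 (library 27). Each of the 5 HD mice exceeded each of the 5 Ctr mice, a separation that 0.978% of all genes showed. The log2 fold change was 0.47 with a standard error of 0.14 (unadjusted p = 0.00261, adjusted p = 0.206), and the exact permutation test gave p = 0.00794 (two-sided, n = 5 each), the smallest p it can give.

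Siglech (ENSMUSG00000051504, chr7:63023548-63034295, plus strand) was split within the HD group. HD mice measured 189.7 (library 3), 224 (library 9), 78.0 (library 15), 189 (library 21) and 132 (library 27), and Ctr mice 121 (library 1), 104 (library 7), 91.9 (library 13), 115 (library 19) and 125 (library 25). Library 15 lay below every Ctr mouse and the other 4 above. The log2 fold change of 0.46 had a standard error of 0.22 (unadjusted p = 0.0454, adjusted p = 0.583). With 1 mouse left out it lay between 0.323 and 0.701. Selplg (ENSMUSG00000048163, chr5:114267807-114280510, minus strand) measured 143 (library 3), 182 (library 9), 129 (library 15), 134 (library 21) and 114 (library 27) in HD mice. Ctr mice measured 135 (library 1), 137 (library 7), 116 (library 13), 108 (library 19) and 105 (library 25), so 2 of 5 HD mice exceeded them all. Its log2 fold change was 0.22 with a standard error of 0.15 (unadjusted p = 0.159), and lay between 0.119 and 0.285 with 1 mouse left out. The selectin genes Sele and Selp were under the filter of this fit.

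The transcription factor gene Sall1 (ENSMUSG00000031665, chr8:91551147-91568061, minus strand) held a narrow range in Ctr mice, 219.8 (library 1), 205 (library 7), 206 (library 13), 202 (library 19) and 211 (library 25). HD mice measured 253 (library 3), 298 (library 9), 171 (library 15), 249.7 (library 21) and 234 (library 27), and as for Siglech, library 15 was below all Ctr mice while the other 4 were above. The log2 fold change was 0.19 with a standard error of 0.12 (unadjusted p = 0.149), and lay between 0.104 and 0.303 with 1 mouse left out.

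Olfml3 (ENSMUSG00000027848, chr3:103537623-103541924, minus strand) showed the largest difference of the 9. Ctr mice measured 105 (library 1), 87.0 (library 7), 139.5 (library 13), 130.4 (library 19) and 112 (library 25). HD mice measured 202 (library 3), 368 (library 9), 169.5 (library 15), 722 (library 21) and 167 (library 27), so that each exceeded every Ctr mouse. The HD mean was 326 ± 236 against 115 ± 20.8 (SD, n = 5), so that the SD of HD mice exceeded the whole Ctr mean with libraries 21 and 9 far above the other 3. The log2 fold change was 1.26 with a standard error of 0.29 (unadjusted p = 0.000253, adjusted p = 0.0956), and the exact permutation p was 0.00794. Over the leave-one-out fits the fold change lay between 0.92 and 1.44. A second annotated transcript on the same strand, Gm16520, shares 110 bases (2.74%) of its exons.

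Exact permutation tests (two-sided, n = 5 each) gave p = 0.0238 for P2ry13, Cx3cr1 and Gpr34, p = 0.0635 for P2ry12, p = 0.135 for Siglech, p = 0.214 for Sall1 and p = 0.159 for Selplg. These belong to 18 such tests, 9 in each diet, and are not adjusted. Within sets of 6 library numbers, the HD mouse exceeded the Ctr mouse in 5 of 5 for P2ry13, Tmem119, Cx3cr1, Olfml3 and Selplg. For the other 4 members it did so in 4 of 5 sets. The share over all genes is not given here, so these counts only describe the members. With the set as a block in the fit, 5 of 9 were called higher by the study's rule, against 3.33% of all genes, and P2ry12 was the member that lost its call.

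**Figure D2:**
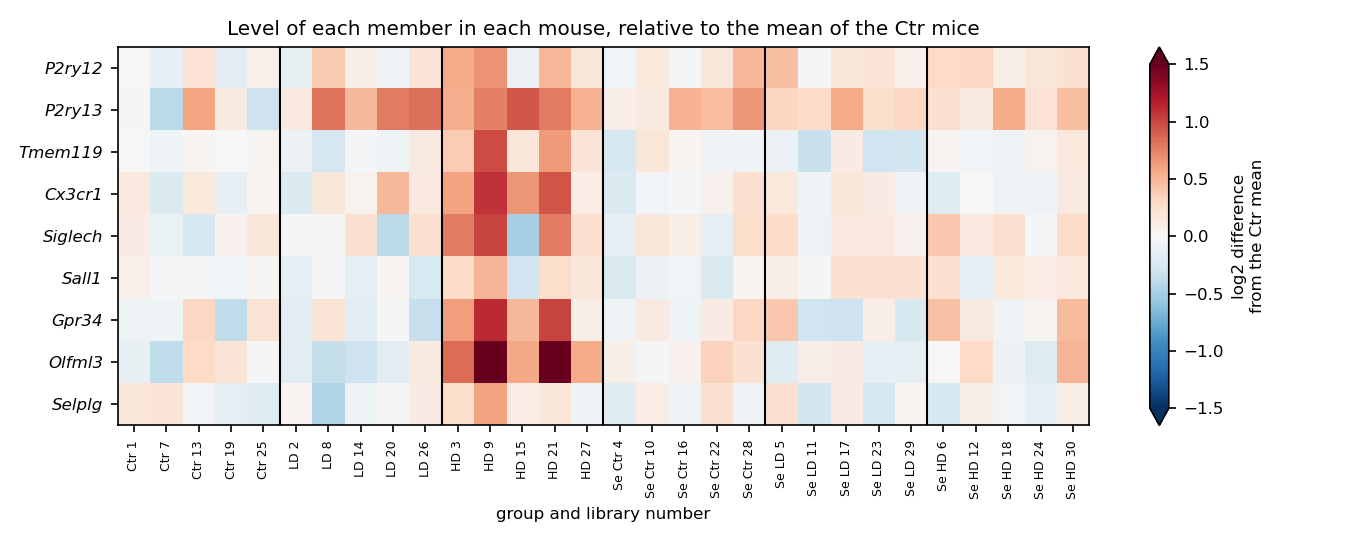
Difference of each member (rows) from the mean of the Ctr mice on the log2 scale, in each of the 30 mice (columns, ordered by group and library number). Red is higher and blue lower, and colours end at 1.5, which Olfml3 in libraries 9 and 21 exceeds. Library 15 is red for P2ry13 and Cx3cr1 and blue for Siglech and Sall1, unlike the other HD mice.

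HD mice differed among themselves in how many members stood out. Library 9 exceeded all Ctr mice in 9 of 9 members, libraries 3 and 21 in 8, library 15 in 5 and library 27 in 4. The highest count in LD mice was 3, in libraries 8 and 26. Against all Se_Ctr mice it was 4, in Se_LD library 5 and in Se_HD library 30. The share over all genes is not given here, so these counts only describe the mice. Library 15, which was below all Ctr mice in Siglech and Sall1, was also the shallowest HD library, with 7133831 reads, and the part of depth in this was not tested. The coefficient of variation over the 5 HD mice was 72.6% for Olfml3, 35.5% for Siglech and 12.2% for P2ry13, against 18.2%, 12.2% and 29.4% in Ctr mice. P2ry13 was the one of these 3 that varied less in HD than in Ctr mice, and the difference in spread was not tested.

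Per kilobase of exon, P2ry12 was the highest member in Ctr mice, with 173 normalized counts, followed by Cx3cr1 with 149, Gpr34 with 75.1, Tmem119 with 67.1, Selplg with 46.1, Sall1 with 39.7, Siglech with 32.9, P2ry13 with 32.6 and Olfml3 with 28.6. Ranges over the 5 mice overlapped between P2ry12 and Cx3cr1, between Gpr34 and Tmem119, between Selplg and Sall1, and among Siglech, P2ry13 and Olfml3 as neighbours. Cx3cr1 led by mean in HD mice, with 244 against 225 for P2ry12, and their ranges overlapped. Olfml3 was the fifth with a mean of 81.1 ± 58.9 per kilobase (SD, n = 5). It ran from 41.5 to 180 and overlapped Selplg, which ran from 43.9 to 69.8.

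At the low dose, 0 of 9 members passed an adjusted p of 0.05 in limma, edgeR or DESeq2 (0% of all genes did in limma), and 1 of 9, P2ry13, was called higher by the study's rule, against 0.819% of all genes. The other 8 had log2 fold changes between -0.17 and 0.13. HD and LD mice, a contrast that shares the HD mice with the one above, differed by the study's rule in 4 of 9 members, Tmem119, Cx3cr1, Gpr34 and Olfml3, against 3.04% of all genes. This count was 7 with DESeq2, beside 996 of 20031 genes called in either direction, and 7 without library 15. None of the 9 passed an adjusted p of 0.05 there (0.0499% of all genes did), and the lowest adjusted p was 0.0603, for Olfml3. The number passing was 1 with edgeR and 4 with DESeq2, beside 38 and 174 of 20031 genes. Tmem119 and Olfml3 were above all LD mice in all 5 HD mice, as were 0.869% of all genes. P2ry13 differed least between the doses, with a log2 fold change of 0.10 and a 95% interval from -0.28 to 0.48.

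In the selenium groups, the means of the 9 members differed by at most 1.16-fold between mice with high dose mercury and mice without. Se_HD and Se_Ctr means differed by log2 fold changes between -0.05 and 0.21 over the 9 members, with a median of 0.05 beside -0.01 over all 19679 genes. None passed an adjusted p of 0.05 in limma, edgeR or DESeq2 (0% of all genes did in limma), and by the study's rule 1 of 9 was called higher, Sall1, against 1.28% of all genes. Sall1 measured 179.5 (library 4), 196 (library 10), 203 (library 16), 179 (library 22) and 215 (library 28) in Se_Ctr mice. Se_HD mice measured 247 (library 6), 188 (library 12), 233 (library 18), 225 (library 24) and 232 (library 30), of which 4 of 5 exceeded all Se_Ctr mice. The log2 fold change was 0.21 with a standard error of 0.09 (unadjusted p = 0.0261), with an exact permutation p of 0.0397 (two-sided, n = 5 each). The call by the study's rule was lost without Se_Ctr library 4 or 22 or Se_HD library 6, 18 or 30. The same gene was the 1 of 9 called higher in Se_LD against Se_Ctr mice, against 0.879% of all genes, with a log2 fold change of 0.26 and an unadjusted p of 0.00608, a call lost without Se_Ctr library 4 or 22. Both contrasts share the Se_Ctr mice.

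The 95% intervals give the precision of these contrasts. For Cx3cr1 the Se_HD minus Se_Ctr interval ran from -0.21 to 0.13, for Tmem119 from -0.16 to 0.27 and for P2ry13 from -0.31 to 0.21. Olfml3 had an interval from -0.30 to 0.23, entirely below that of the contrast without selenium, which ran from 0.67 to 1.86. For Gpr34 it reached from -0.17 to 0.40 and overlapped the interval from 0.31 to 1.03 found without selenium.

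The levels in the remaining groups complete the picture for each role, as means with SD over 5 mice. Among the receptors, P2ry12 measured 439.9 ± 65.4 in LD, 459 ± 72.9 in Se_Ctr, 464 ± 58.9 in Se_LD and 477 ± 29.4 normalized counts in Se_HD mice. P2ry13 measured 105 ± 18.2 in Se_Ctr, 102 ± 9.08 in Se_LD and 101 ± 12.6 in Se_HD mice, between its Ctr and LD means. Gpr34 measured 146 ± 21 in LD, 166 ± 18.2 in Se_Ctr, 150.5 ± 35.2 in Se_LD and 181 ± 30.3 in Se_HD mice. All of these means were below the HD mean of the same gene. Cx3cr1 measured 612 ± 106 in LD, 558 ± 67.3 in Se_Ctr and 579 ± 45.3 in Se_LD mice. Tmem119 measured 149.9 ± 14.6 in LD, 153 ± 16 in Se_Ctr and 138 ± 19.3 in Se_LD mice, and its Se_LD mean was the lowest of the 6 groups. Siglech measured 113 ± 19.3 in LD, 116 ± 14.6 in Se_Ctr, 119.9 ± 10.8 in Se_LD and 129 ± 14.2 in Se_HD mice. The Selplg means of the groups other than HD were the closest together, from 115 ± 16.7 in LD to 120.1 ± 15.1 in Ctr mice. Sall1 was the member whose Se_LD mean, 234 ± 15.7, came nearest to that of HD mice, beside 194.6 ± 14.2 in LD mice. The secreted protein gene Olfml3 measured 101 ± 14.3 in LD, 125 ± 13 in Se_Ctr and 110.2 ± 11.3 in Se_LD mice.

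**Figure D3:**
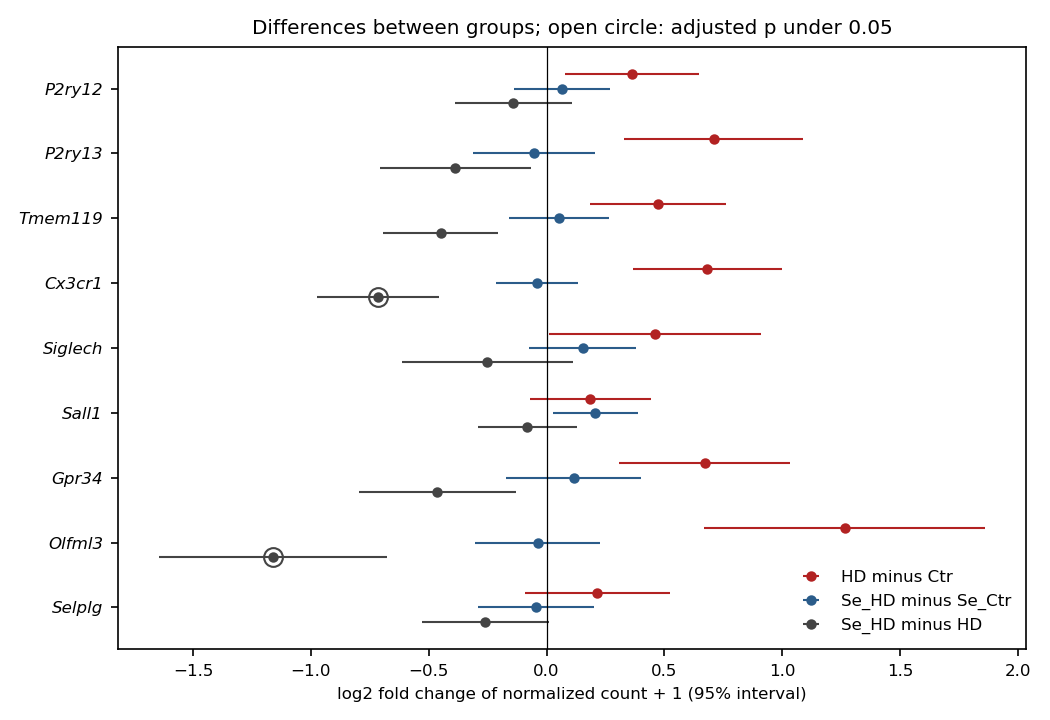
Log2 fold change (x axis) with its 95% interval for each member (rows) in 3 contrasts, HD minus Ctr (red), Se_HD minus Se_Ctr (blue) and Se_HD minus HD (dark grey), where HD minus Ctr and Se_HD minus HD share the HD mice. Open circles mark adjusted p under 0.05, reached by Cx3cr1 and Olfml3 in Se_HD minus HD.

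Mice labelled as given selenium and high dose mercury had lower levels of Cx3cr1 and Olfml3 than HD mice. Both were lower at an adjusted p under 0.05 over 21383 genes (2 of 9, against 0.327% of all genes in either direction). Dose, age and time on diet of Se_HD mice are not given in the sources used here. Selenium therefore cannot be told apart from differences in these. Cx3cr1 measured 488 (library 6), 554 (library 12), 524 (library 18), 534 (library 24) and 604 (library 30) in Se_HD mice. That is below all HD mice in 4 of 5, library 30 being above library 27 of the HD group, and the log2 fold change was -0.72 with a standard error of 0.13 (adjusted p = 0.00585). Olfml3 measured 112 (library 6), 139.5 (library 12), 106 (library 18), 99.2 (library 24) and 162 (library 30), all below all HD mice. Its log2 fold change was -1.16 with a standard error of 0.24 (adjusted p = 0.0187). Without HD library 9 or 21 or Se_HD library 6, 18 or 24, Olfml3 no longer passed (adjusted p up to 0.0992), whereas that of Cx3cr1 was at most 0.0433 in the leave-one-out fits.

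Tmem119 in Se_HD mice lay from 147 to 173, with a median of 159, and was the other member in which all 5 mice were below all 5 HD mice, as 0.903% of all genes were. Its log2 fold change was -0.45 with a standard error of 0.12 (unadjusted p = 0.000682, adjusted p = 0.124). By an unadjusted p under 0.05 alone, 5 of 9 were called lower (also P2ry13 and Gpr34), against 5.28% of all genes. P2ry13 in Se_HD mice lay from 87.7 to 118, with a median of 95.4, and Gpr34 from 149.8 to 216, with a median of 170.0. P2ry12, Siglech and Selplg had log2 fold changes of -0.14, -0.25 and -0.26, and Sall1 of -0.08, with adjusted p from 0.62 to 0.91. With 1 mouse left out, values ran from -0.254 to -0.062 for P2ry12, -0.492 to -0.114 for Siglech and -0.329 to -0.163 for Selplg. Se_Ctr was called higher than Ctr by limma's unadjusted p in 1 of 9 members, P2ry13 (log2 fold change 0.38, unadjusted p = 0.0232, adjusted p = 1), against 1.78% of all genes, and this was lost without Ctr library 7 or 25 or Se_Ctr library 16 or 28.

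Other lists were lower in Se_HD than in HD mice too. Of the 20 general microglia and macrophage genes 12 fell at an adjusted p under 0.05 (median -1.07), of the 20 disease-associated genes 6 (median -0.77) and of the 14 other homeostatic genes 2 (median -0.38), beside a median of -0.39 over the 9 members and -0.01 over all genes. All 7 astrocyte genes (median -0.22) and all 9 proliferation genes (median -0.63) had lower means, with 0 at an adjusted p under 0.05 and 3 and 2 at an unadjusted p under 0.05. Their part in the members' differences was not tested.

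Whether the HD effect differed between the diets was tested by an interaction over all 30 mice, which uses the same HD mice again. The same limit on dose, age and time on diet of the selenium groups holds here. At an unadjusted p under 0.05, 5 of 9 members had a smaller HD effect with selenium, against 2.96% of all genes: P2ry13, Tmem119, Cx3cr1, Gpr34 and Olfml3. None passed an adjusted p of 0.05 (0% of all genes did), with 0.364 as the lowest, for Cx3cr1. The count was 0 with edgeR and 1 with DESeq2, beside 0 and 12 of 21383 genes. By unadjusted p the count was 3 without HD library 9. The same test called 17 of 20 general microglia and macrophage genes lower (median -1.14) and 10 of 20 disease-associated genes (median -0.66), with 0 of either at an adjusted p under 0.05. The difference of effects was -1.30 for Olfml3, with a 95% interval from -1.99 to -0.62, and -0.72 for Cx3cr1, with an interval from -1.09 to -0.35. For Sall1 it was 0.02, with an interval from -0.28 to 0.32. Averaged over both diets, the HD effect had an unadjusted p under 0.05 in 8 of 9 members (all but Selplg), against 5.28% of all genes higher. Its median over the members was 0.31. An adjusted p under 0.05 was reached in 0 of 9, against 0.21% of all genes. This count was 0 with edgeR and 2 with DESeq2, beside 68 and 183 of 21383 genes. Without library 15 or 27 it was 2 or 3, with no count over all genes given here.

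Genes that microglia share with other macrophages had a larger median fold change than the members. The ranges of both lists overlapped, and the difference was not tested. Of 20 such general microglia and macrophage genes, 9 rose at an adjusted p under 0.05 in HD against Ctr mice and all 20 had higher means, with a median log2 fold change of 1.16. Mpeg1, a pore-forming protein of phagocytes, measured 1018 against 276 normalized counts (log2 fold change 1.75, standard error 0.25, adjusted p = 0.0068). Tyrobp, an adaptor of activating receptors, and C1qa and C1qb, subunits of the complement component C1q, rose by 1.71, 1.33 and 1.71 on the log2 scale. Of 20 genes listed for disease-associated microglia, 3 rose, with a median of 0.91. These were Cd84, an adhesion receptor (2.58), Lyz2, lysozyme (1.93), and Itgax, an integrin subunit (3.46, from a mean of 2.12 to 43.0). Without library 21, 4 of the 20 general genes (median 0.90) and 2 of the 20 disease-associated genes (median 0.57) passed. A further 14 homeostatic genes outside the 9 had log2 fold changes from -0.10 to 1.48, with 0 of 14 at an adjusted p under 0.05, 7 of 14 by the study's rule and a median of 0.34. Csf3r (log2 fold change 1.14, adjusted p = 0.0623), Fcrls (1.48, 0.194) and Entpd1 (0.43, 0.274) were among those with the lowest p.

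Within each mouse, the mean log2 level of the 9 members minus that of the 20 general genes was taken after subtracting each gene's mean over the 30 mice. This difference was 0.07 ± 0.10 in Ctr mice (SD, n = 5), with a range from -0.03 to 0.20. In HD mice it was -0.54 ± 0.44, from -1.19 (library 21) to -0.05 (library 27), all below all Ctr mice. It was 0.10 ± 0.06 in Se_HD mice. Each member's log2 level minus that of Csf1r, the receptor gene that macrophages depend on, had a lower mean in HD than in Ctr mice for 8 of 9 members and a higher one for Olfml3. The HD minus Ctr difference was -0.56 for Sall1, -0.53 for Selplg, -0.38 for P2ry12, -0.28 for Siglech and -0.27 for Tmem119, and -0.07 for Gpr34, -0.06 for Cx3cr1 and -0.03 for P2ry13. For Olfml3 it was 0.52, and 0.31 without library 21, the HD mouse with its highest value. Without that mouse P2ry13 and Cx3cr1 also had higher means, by 0.08 and 0.01. The other 6 members remained lower, among them Tmem119 by -0.176 and Gpr34 by -0.025. None of these differences was tested. Library 21 had the highest general level, 1.91, with a member level of 0.72, whereas library 9 had the highest member level, 0.80, with a general level of 1.56.

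**Figure D4:**
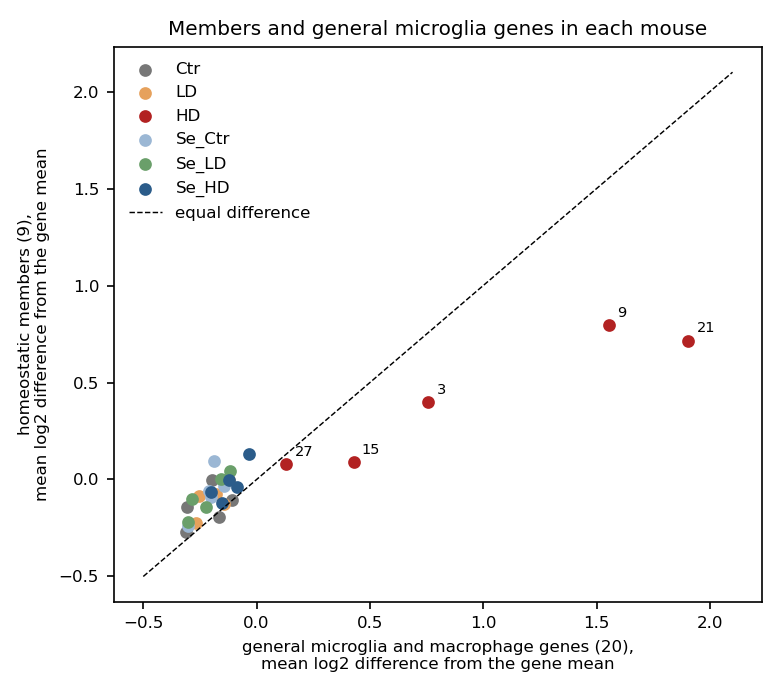
Mean log2 difference from the gene mean over the 30 mice, for the 20 general microglia and macrophage genes (x axis) and the 9 members (y axis), 1 point per mouse, coloured by group, with HD library numbers. The dashed line marks equal differences. The 5 HD mice lie to the right of the other groups and below the line, the member level reaching 0.80 and the general level 1.91.

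Other cell type lists give the background to this. None of the 10 border-associated macrophage genes tested passed an adjusted p of 0.05, and their median was 0.31, with Stab1 the one gene called by the study's rule (0.69, adjusted p = 0.171). Of 6 blood monocyte and neutrophil genes tested, 0 were called by either rule, with a median of 0.42. The summed level of the 6 choroid plexus genes lay between 6900 and 28964 in HD and between 767 and 30808 in Ctr mice, and all 6 had higher means in HD mice (median 1.42, lowest adjusted p 0.598). In Se_HD mice the sum lay between 9206 and 34010. Library 9, the HD mouse with the highest member level, had the lowest choroid plexus sum of the HD mice. All 7 astrocyte genes had higher means, with a median of 0.24, and 2 were called by the study's rule. Neuronal genes had a median of -0.10 over 9 genes and oligodendrocyte genes of -0.12 over 6, oligodendrocyte precursor genes of 0.12 over 4, endothelial and mural genes of 0.03 over 7 and erythrocyte genes of -0.52 over 5, and all 9 proliferation genes had higher means (median 0.85, lowest adjusted p 0.507). Library 21 had by far the highest proliferation sum and the lowest neuron sum of the 30 mice. Without it, a setting added after seeing the data, 7 of 9 proliferation genes were higher (median 0.27), the neuron median was 0.005 and the member median was 0.43. Their part in the members' differences was not tested.

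Of the signals that maintain the identity programme, transforming growth factor beta, coded by Tgfb1, had a mean of 36.1 normalized counts in HD and 18.9 in Ctr mice, all 5 HD mice above all 5 Ctr mice (log2 fold change 0.90, standard error 0.25, adjusted p = 0.182). Its receptor gene Tgfbr1 had a log2 fold change of 0.34 and its effector Smad3 one of -0.03, with unadjusted p of 0.017 and 0.821. Of 19 ligands and partners tested, 4 were called higher by the study's rule, Tgfb1, Entpd1, Csf1 and Tgfbr1, against 3.36% of all genes. At an adjusted p under 0.05 the count was 0, against 0.13%. Entpd1 and Tgfbr1 are also among the other homeostatic genes and Csf1 among the disease-associated genes, so the counts of these lists are not separate. Of 10 other genes in the purinergic receptor list, 2 were called higher by the study's rule, P2rx7 (0.40) and P2ry6 (0.62). This stands against the same 3.36%, and the list median was 0.26. The list also holds Gpr183, which is not a purinergic receptor, and P2ry6 is also among the other homeostatic genes.

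Most pairs of members varied together across mice when HD mice were included. After subtraction of group means, Pearson's r over the 36 pairs of members had a median of 0.40 over 30 libraries and ranged from -0.14 (P2ry13 and Siglech) to 0.72 (P2ry12 and Gpr34). Over the 25 libraries outside the HD group, a setting added after seeing the data, the median was 0.16, 27 of 36 pairs were above 0 and the lowest was -0.30 (Sall1 and Olfml3), and P2ry12 with Gpr34 was again the highest pair (0.71), followed by P2ry13 with Cx3cr1 (0.64). Libraries share their size factor and tissue composition, and these values are descriptive.

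The genes most like the members in pattern were sought among 14287 other genes whose mean reached 10 normalized counts, by Pearson's r over the 30 libraries with the mean of the members. Among the 10 highest were Lcp1 (0.93), Ctss (0.93), Csf1r (0.92), Itgam (0.91), Mpeg1 (0.91), Slc14a1 (0.90), Laptm5 (0.90), Grn (0.88) and Irf8 (0.88). With group means subtracted, the 5 highest included Lcp1 (0.83), Inpp5d (0.82), Csf1r (0.82) and Ctss (0.82). The order depended on the measure. By Spearman's rho, 5 of the 10 genes were shared (Lcp1, Ctss, Csf1r, Itgam and Irf8) and the highest rho was 0.78, for Itgam, and within groups 2 of 5 were shared. Outside the HD group, Pearson's r within groups over the 10 genes ranged from 0.24 for Laptm5 and 0.27 for Grn to 0.70 for Itgam.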

How the data were processed

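The 9 members and the other gene lists were chosen with earlier results of these data known. Hippocampus RNA of 30 mice was sequenced as single-end reads, which the authors trimmed (Trim Galore 0.4.2), mapped with Hisat2 to NCBIM37 and counted per gene with FeatureCounts, whose strand setting is not given in the sources used here (reads of a gene and an overlapping antisense gene may then be mixed). The deposited signal values are the authors' read counts divided by DESeq2 size factors, without features of a row sum under 10 reads. Every value was a whole number of reads (tolerance 0.001 read) divided by 1 factor per library, so reads were recovered for 100% of values. Of 21412 identifiers, 21326 had a symbol in the NCBIM37 annotation, and no sample column was left unmapped.

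Values were taken as log2 after addition of 1 and fitted with limma 3.58.1 (variance trend) in R 4.3.3, over 15 libraries per diet or all 30 for contrasts between diets, for genes whose normalized counts summed to 10 or more, with Benjamini-Hochberg adjustment over all genes tested. For contrasts between diets the second rule is the contrast's unadjusted p alone. As alternatives, the pseudocount was set to 0.1 or 10, the filter to a mean of 10 or to none, and the others were TMM, quantile normalization, library set as a block, no trend, all 30 libraries, 2 groups alone, edgeR 4.0.16 and DESeq2 1.42.0 on recovered reads, and leaving out each mouse. Scripts were tested on simulated data. Named genes were all members, up to 4 genes per list with the lowest p in HD against Ctr, direct partners of members, the 10 genes most like the members over all libraries and the 5 most like them within groups. The p-values measure the spread between single mice. Proteomic data were not used here, and some genes that the rule names are not reported here. Figures were drawn with matplotlib 3.10.9.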

Additional observations from a re-analysis of the deposited data

Results flagged for a closer look

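The HD effect differed between the diets by unadjusted p in 5 of the 9 members, all lower with selenium, against 632 of 21383 genes lower. The effect with selenium minus that without was -0.76 for P2ry13, -0.42 for Tmem119, -0.72 for Cx3cr1, -0.55 for Gpr34 and -1.30 for Olfml3 on the log2 scale, and in limma's interaction test the adjusted p of these ranged from 0.364 to 0.997. The LD effect differed in the same way by -0.64 for P2ry13 (unadjusted p = 0.00721) and by 0.37 for Sall1 (unadjusted p = 0.0175), with an adjusted p of 0.998 for both. By the same unadjusted rule, 401 of 21383 genes had a lower and 400 a higher LD effect with selenium. In P2ry13, Se_LD library 17 stood apart from the other 4 Se_LD mice, at 117.9 normalized counts, with a gap of 0.827 of the group's range against a critical value of 0.71. It was the 1 of 54 groups of 5 mice tested over the members that did so, where chance gives about 2.7.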

How the results depend on the processing

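Counts of members at an adjusted p under 0.05 depended on the tool. HD against Ctr gave 0 in limma per diet, 1 in edgeR, 4 in DESeq2 and 5 in limma over all 30 libraries, and 0 to 3 when 1 mouse was left out. HD against LD gave 0, 1, 4 and 4, and 0 to 3. Se_HD against HD gave 2, 1 without the variance trend, and 1 to 3 with a mouse left out. The interaction gave 0, 1 in DESeq2 and 0 to 1 with a mouse left out, and the HD effect averaged over diets 0, 2 in DESeq2 and 0 to 3. By the second rule, HD against LD gave 4, 7 in DESeq2 and 4 to 7 with a mouse left out, Se_HD against Se_Ctr gave 1, 0 over all 30 libraries and 0 to 1, and the interaction 5 and 3 to 7. Signs turned only in small differences. With a mouse left out, Se_HD against Se_Ctr ran from -0.123 to 0.02 for P2ry13, from -0.097 to 0.021 for Cx3cr1, from -0.139 to 0.036 for Olfml3 and from -0.09 to 0.012 for Selplg. For Sall1, Se_HD against HD ran from -0.199 to 0.0, and the interaction was -0.017 in edgeR and in DESeq2 and -0.096 to 0.103 with a mouse left out. The cause was not tested. Over all genes, calls at an adjusted p under 0.05 in HD against Ctr numbered 26, and 17, 11, 0, 45, 196 and 200 with pseudocounts of 0.1 and 10, no trend, edgeR, DESeq2 and all 30 libraries, and 0 with 2 groups alone. In Se_HD against HD they numbered 70, and 27, 167 and 228 with no trend, edgeR and DESeq2. In HD against LD they numbered 10, and 38, 174 and 141 with edgeR, DESeq2 and all 30 libraries. Cx3cr1 in Se_HD against HD passed in 20 of 20 alternatives and Olfml3 in 14 of 20. Replicate numbers followed accession order and paired no mice. Sets of library numbers were used as a block instead, and the adjusted counts of members were as without it.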

Other observations

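Averaged over the 3 mercury levels, the selenium effect was called lower by unadjusted p in limma in 3 of 9 members, as it was in 813 of 21383 genes. The log2 difference was -0.26 for Cx3cr1 (standard error 0.07), -0.20 for Tmem119 (standard error 0.07) and -0.30 for Olfml3 (standard error 0.14), with adjusted p from 0.653 to 0.752. The averages include the HD mice, and doses, age and time on diet of the selenium groups are not given in the sources used here. At the low dose the Se_LD minus LD differences of the same genes were -0.07, -0.12 and 0.13, and without mercury the Se_Ctr minus Ctr differences were 0.01, -0.03 and 0.14. Sall1 differed in the other direction at the low dose, by 0.26 (standard error 0.10, unadjusted p = 0.016, adjusted p = 1).

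Proliferation genes were uneven among HD mice. The summed level of the 9 genes was 599 normalized counts in library 21 and 172 in library 9, against 68.9 to 103 in the other 3 HD mice and between 65.7 and 97.3 in all mice of the other 5 groups.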
